A study of Mus musculus with 2 samples.

Results

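The 10 sarcomeric myosin heavy chain genes of the mouse, Myh1, Myh2, Myh3, Myh4, Myh6, Myh7, Myh7b, Myh8, Myh13 and Myh15, were followed in total RNA from gastrocnemius, a large calf muscle. They were chosen by gene symbol and matched by gene identifier, and all 10 were found among 55536 annotated genes. The series held 1 group of 2 biological replicate libraries from male B6CASTF1/J mice, a C57BL/6 by CAST hybrid, aged 14 days, with no treatment and no control group. Input was 300 ng of RNA a library, and synthetic ERCC RNAs had been added. The labels give both libraries the same donor identifier and also mention 3 males, so whether a library was 1 animal or a pool, and whether the libraries came from different animals, was not settled. The tables held 40825601 expected counts in replicate 1 and 37329025 in replicate 2. Each library had been quantified in 2 ways by the authors. The first used reads aligned to the transcriptome and also gave interval bounds of the level, and the second used the reads and an index. Levels are in TPM, the abundance of a transcript per length, scaled to a sum of 1000000 in each library. The p-values below measure only the spread, or the counting error, of these 2 libraries.

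A myosin heavy chain is the motor of the thick filament. Its head binds actin and splits ATP, and its tail coils with a second chain and packs into the filament, so the heavy chain present sets much of how fast a fibre shortens. Limb muscle makes embryonic and neonatal chains early in life. Adult limb muscle holds a slow chain and several fast chains, each of which marks a fibre type.

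Myh4, the chain of the fastest fibres (type IIb), was by far the most abundant member. Its level was 12004 TPM in replicate 1 and 12213 in replicate 2, from 2274929 and 2165334 expected counts, and ranked 5 among the nuclear protein-coding genes. Myh1, the chain of type IIx fibres, had 1859 and 1770 TPM. Myh2, the chain of type IIa fibres, had 827 and 757 TPM. These 3 adult fast chains together made 96.5% and 97.0% of the summed TPM of the family. Both libraries therefore had the same order of fast chains, with Myh4 at 6.46 and 6.90 times Myh1, and Myh1 at 2.25 and 2.34 times Myh2. In whole muscle, fewer fibres of a type and less RNA per fibre cannot be told apart.

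The developmental chains were far lower. Myh8, the neonatal (perinatal) chain, had 183 and 159 TPM from 35221 and 28660 counts. Myh3, the embryonic chain, had 15.3 and 13.8 TPM from 2894 and 2452 counts. Both were therefore detected at this age in both libraries, Myh8 at rank 314 and Myh3 at rank 3350 among nuclear protein-coding genes. Myh8 took 1.12 ± 0.110% and Myh3 0.0957 ± 0.00657% of the summed TPM (SD, n = 2 for both).

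Among the slow and cardiac chains, Myh7, the chain of slow fibres and of the heart ventricle, had 272 and 236 TPM from 36110 and 29665 counts. Myh6, the alpha chain of the heart, had 54.6 and 49.0 TPM, but from only 2426 and 2050 counts. Myh6 thus had 3.57 and 3.54 times the TPM of Myh3 on fewer counts, and its transcripts are taken up separately. Myh7 was above Myh8 by 1.49 and 1.48 times in the first quantification.

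The remaining members were the lowest. Myh13, best known from extraocular muscle, had 2.33 and 2.07 TPM from 434 and 355 counts. Myh7b, an ancient slow-type chain whose gene hosts a miRNA, had 0.89 and 0.41 TPM from 115 and 46 counts. Myh15, an ancient chain described in extraocular muscle, had 1 and 2 counts. That is under the floor of 3 counts, which equals 0.0735 and 0.0804 CPM (counts in 1000000), so Myh15 was not detectable at this depth. In all, 8 of the 10 members had at least 1 TPM in both libraries.

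The order Myh4, Myh1, Myh2, Myh7, Myh8, Myh6, Myh3, Myh13, Myh7b and Myh15 was the same in both libraries. For all 9 pairs of neighbours the interval bounds of the first quantification were separate in both libraries. These bounds surround a posterior mean rather than the listed TPM, and for 4 members the listed TPM lay outside its own bounds in both libraries. In the second quantification 1 pair changed places: Myh7 was 0.920 and 0.874 times Myh8.

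**Figure D1:**
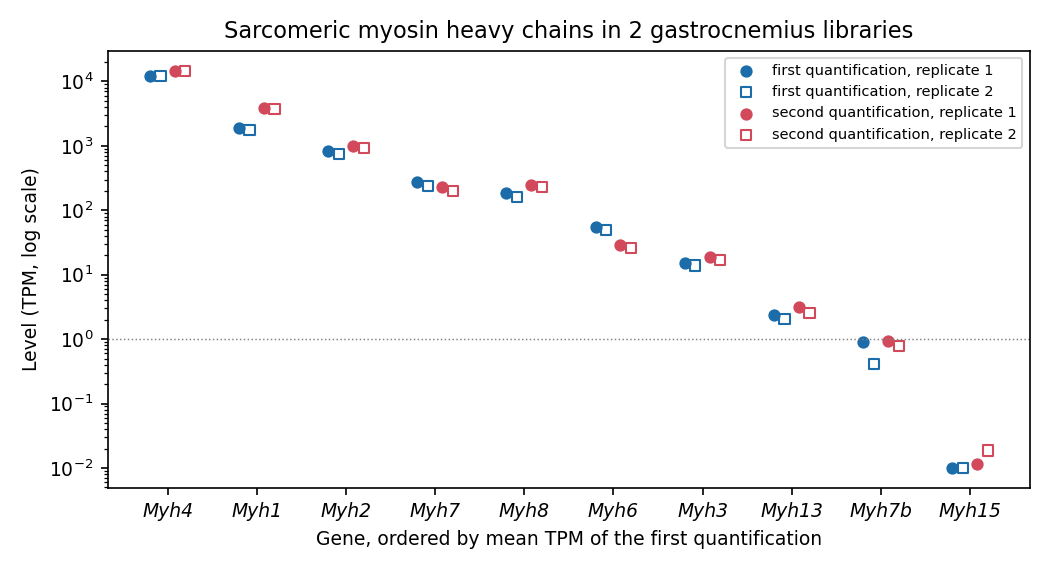
Level of each gene (TPM, log scale) in both libraries and both quantifications, with filled circles for replicate 1, open squares for replicate 2, blue for the first quantification and red for the second. The libraries lie close together for all genes but Myh7b in the first quantification and Myh15 in the second. In the second quantification Myh6 and Myh7 are lower and all the other genes higher, Myh1 by the largest ratio. The dotted line marks 1 TPM.

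As a group, the members had 15218 and 15199 summed TPM, which was 3.27% and 3.21% of the TPM of the 22015 nuclear protein-coding genes. These long transcripts took a larger part of the reads, 7.02% and 7.20% of all gene counts. In relative terms, the family sum differed between the libraries by less than each of the 9 members above the floor did.

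Members lie in 4 places in the genome (GRCm38, GENCODE M21). Of the skeletal cluster on chromosome 11, all on the plus strand, Myh3 spans chr11:67078300-67102291, Myh2 chr11:67171027-67197517, Myh1 chr11:67200052-67224575, Myh4 chr11:67238029-67260446, Myh8 chr11:67277124-67308634 and Myh13 chr11:67321658-67371586. Myh6 (chr14:54941921-54966927) and Myh7 (chr14:54970684-54994626) are neighbours on the minus strand. Myh7b (chr2:155611212-155634307) and Myh15 (chr16:49057486-49199104) stand alone, both on the plus strand. The cluster on chromosome 11 gave 97.8% and 98.1% of the summed TPM. Along it, the middle genes Myh2, Myh1 and Myh4 were high and the outer genes Myh3 and Myh13 low.

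**Figure D2:**
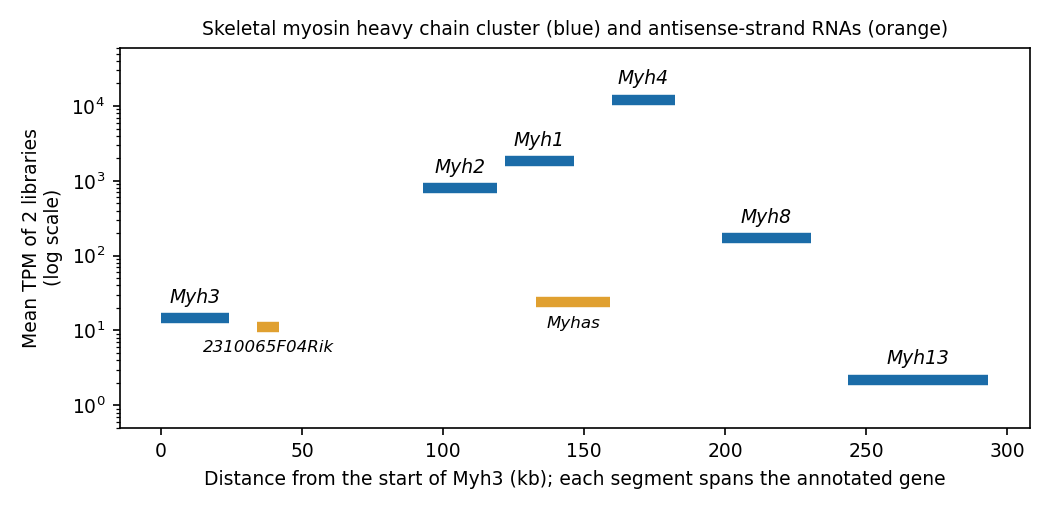
Mean TPM of the 2 libraries (log scale) of the 6 genes of the chromosome 11 cluster in blue and of 2 RNAs transcribed from the opposite strand in orange, against the distance from the start of Myh3. Of the 6 genes, Myh4 stands highest, with Myh1 and Myh2 to its left, while Myh3 and Myh13 at the ends are lowest.

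Other transcripts at these loci were few. Myhas, an antisense RNA that starts next to Myh4 and overlaps the end of Myh1, had 24.3 and 23.7 TPM (617 and 560 counts). The lincRNA 2310065F04Rik, between Myh3 and Myh2 on the minus strand, had 8.93 and 13.5 TPM, and was higher in replicate 2 (log2 difference in counts 0.66, exact binomial test, adjusted p = 3.1e-17). Mhrt, an antisense RNA of Myh7 studied in the heart, had 2 and 1 counts, under the floor. Trpc4ap, whose end overlaps the end of Myh7b, had 38.0 and 33.3 TPM. Whether counting used the strand is not given in the sources used here, so where genes overlap on opposite strands, as Myh1 with Myhas and Myh7b with Trpc4ap, their reads may not be fully separated.

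The coding sequences of the cluster are very alike, and they are shown because reads from shared stretches had to be divided among the genes. The window below, a stretch of the tail region of coding bases 2977 to 3066 in Myh4, is identical over 90 bases in Myh4 (chr11:67252224-67252313, exon 23), Myh1 (chr11:67213605-67213694, exon 24), Myh2 (chr11:67188704-67188793, exon 23) and Myh8 (chr11:67297488-67297577, exon 24). All are on the plus strand of GRCm38 and in the reference allele. In that allele these 90 bases alone cannot name their gene, and a longer read also holds bases outside the window.
Myh4, Myh1, Myh2 and Myh8: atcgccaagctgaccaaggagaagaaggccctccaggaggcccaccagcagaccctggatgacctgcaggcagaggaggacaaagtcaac

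The least alike window of the same length, from coding base 3832 of Myh4, shows what tells them apart. It spans exons 27 and 28 of Myh4 and of Myh2 and exons 28 and 29 of Myh1 and of Myh8, so the printed bases are the joined exons, and capitals mark bases that differ from Myh4. Of the 90 columns, 52 are the same in all 4 genes. Myh1 differs from Myh4 at 29, Myh2 at 26 and Myh8 at 23 of them.
Myh4 (chr11:67254093-67254513): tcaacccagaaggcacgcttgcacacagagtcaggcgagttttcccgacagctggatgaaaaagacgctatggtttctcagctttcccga
Myh1 (chr11:67215934-67217519): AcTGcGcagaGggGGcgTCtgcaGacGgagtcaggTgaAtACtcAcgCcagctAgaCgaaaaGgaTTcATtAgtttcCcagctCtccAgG
Myh2 (chr11:67190400-67191403): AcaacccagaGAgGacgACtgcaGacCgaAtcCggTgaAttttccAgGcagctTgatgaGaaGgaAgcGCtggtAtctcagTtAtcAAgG
Myh8 (chr11:67299364-67299768): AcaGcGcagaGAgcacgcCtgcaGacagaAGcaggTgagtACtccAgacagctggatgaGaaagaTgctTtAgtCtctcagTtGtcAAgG

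Over the whole coding sequence, Myh6 and Myh7 were the closest pair, with 91.4% identity and 245 identical bases in their longest shared run. Myh1 and Myh2 followed with 91.0% and a run of 268 bases, and Myh1 and Myh4 with 89.96% and 161 bases. Myh8 was 87.7% to 88.8% identical to these 3 fast chains. Myh13 was closest to Myh8 at 79.5%, yet they shared a run of 213 identical bases. Myh15 and Myh7b were the outlying members, at 60.6% to each other, and Myh15-201 had none of its 31-base words in another member. Of the 31-base words of the main Myh4 transcript, 30.4% occurred in another member, against 40.2% for Myh1-202 and 10.8% for Myh3-201. Over words of 100 bases these shares were 3.85%, 9.84% and 1.15%. Myh7b-201 shared none of its 100-base words with another member.

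**Figure D3:**
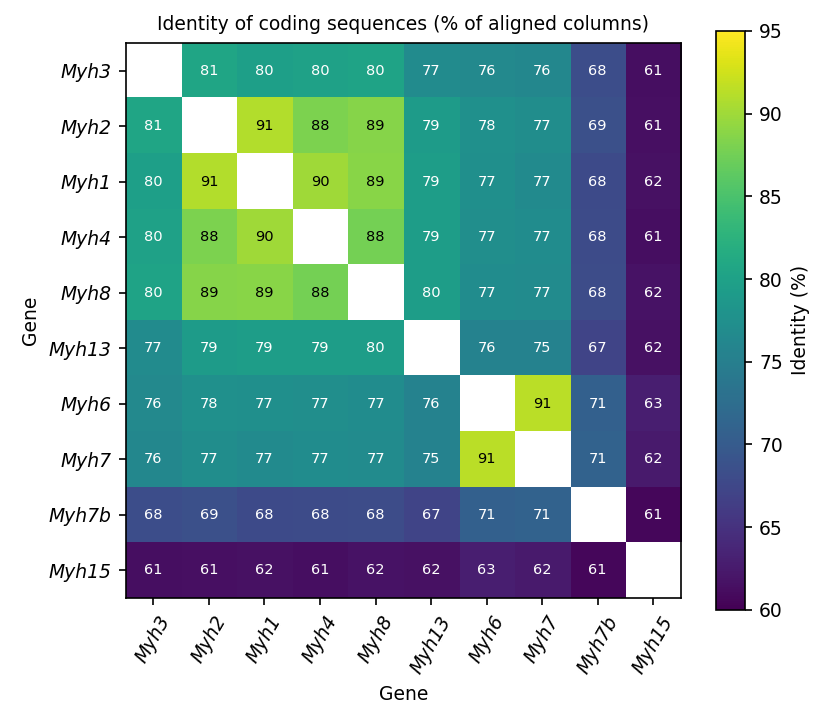
Identity of the coding sequences of every pair of the 10 genes (% of aligned columns), with 1 coding sequence per gene. Myh1, Myh2, Myh4 and Myh8 form 1 block and Myh6 with Myh7 another, with the highest identity at 91.4%, while Myh7b and Myh15 are unlike all others.

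The starts of the cluster genes also share sequence. The 250 bases before the annotated RefSeq start (GRCm38.p6) are shown for the 4 cluster genes with the highest levels because they hold a block of 14 bases in common, TTCTAATTATATCC, 158 bases before the start in Myh4, 160 in Myh1, 125 in Myh2 and 54 in Myh8. Capitals mark this block and a second one, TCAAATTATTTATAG, which is in Myh4, Myh1 and Myh8.
Myh4 (chr11:67237562-67237811, plus strand): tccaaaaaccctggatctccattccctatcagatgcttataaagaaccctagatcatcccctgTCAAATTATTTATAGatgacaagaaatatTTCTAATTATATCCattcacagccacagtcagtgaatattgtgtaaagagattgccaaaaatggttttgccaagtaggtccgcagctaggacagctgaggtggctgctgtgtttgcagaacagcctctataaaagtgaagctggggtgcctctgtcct
Myh1 (chr11:67199852-67200101, plus strand): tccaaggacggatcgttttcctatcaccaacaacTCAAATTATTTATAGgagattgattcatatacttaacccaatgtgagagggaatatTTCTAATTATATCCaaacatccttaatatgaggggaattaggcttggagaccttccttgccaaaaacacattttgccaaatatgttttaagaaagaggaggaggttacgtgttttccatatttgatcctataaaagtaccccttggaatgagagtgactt
Myh2 (chr11:67170777-67171026, plus strand): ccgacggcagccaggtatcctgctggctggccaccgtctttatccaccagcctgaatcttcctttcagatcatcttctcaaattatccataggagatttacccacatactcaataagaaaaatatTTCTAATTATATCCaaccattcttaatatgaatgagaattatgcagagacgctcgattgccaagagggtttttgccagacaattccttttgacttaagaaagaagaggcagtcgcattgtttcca
Myh8 (chr11:67276874-67277123, plus strand): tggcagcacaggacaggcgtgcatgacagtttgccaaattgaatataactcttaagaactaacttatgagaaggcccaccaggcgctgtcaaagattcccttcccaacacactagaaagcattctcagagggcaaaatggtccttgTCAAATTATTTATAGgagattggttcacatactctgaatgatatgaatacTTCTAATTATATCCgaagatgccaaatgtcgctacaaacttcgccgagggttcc

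Searched on both strands, the first block was in 4 of 32851 RefSeq windows of this length (0.0122%) and the second in 3 (0.00913%). Both words were taken from these windows, so the counts describe them and test nothing. The RefSeq start of Myh4 lies 217 bases before its GENCODE gene start and that of Myh1 50 bases after, so these distances depend on the start used. The TATA box letters TATAAA, searched on the sense strand and found in 7.59% of windows, stood 31 bases before the start in Myh4, 32 in Myh1 and 29 in Myh3. Myh4 had another match 213 bases before the start, and the printed windows of Myh2 and Myh8 had none. A match is a description of letters and not a site in use.

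The split of a gene's level among its annotated transcripts was compared between libraries and between quantifications. The members have 39 annotated transcripts, of which 19 are under 5000 bases and so cannot hold the whole coding sequence, which is 5775 to 5826 bases. The long coding transcripts of each gene share 1 coding sequence, so they differ only in untranslated parts. Of the 9 members with more than 1 transcript, 6 were led by the same transcript in both quantifications.

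Myh4 was the simplest case. Transcript Myh4-201 took 100% of its TPM in both libraries and both quantifications. For Myh8, Myh8-201 took 99.1% and 99.3% in the first quantification and 76.0% and 69.8% in the second. There Myh8-203, a 3317-base transcript that retains an intron, was given 4973 and 5534 counts, against 31.5 and 9.68 in the first.

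Myh1 was split among several transcripts. In the first quantification Myh1-203 took 46.4% and 49.0%, Myh1-202 42.7% and 39.5%, and the 631-base Myh1-204 only 4.91% and 4.77%. In the second, Myh1-204 led with 45.0% and 45.3%, followed by Myh1-201 with 36.8% and 34.8% and Myh1-202 with 17.5% and 18.7%. Myh1-204 was given 1557 and 1345 counts in the first and 14501 and 13239 in the second, which after division by its short length made 1729 and 1676 TPM. It starts near the 5′ end of the gene, and 56.9% of its bases lie in exons 2 to 4 of Myh1-203.

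Myh2 had another leading transcript in each quantification. Myh2-201 took 88.1% and 85.4% in the first quantification, and Myh2-203 took 79.1% and 71.2% in the second. Both hold the same coding sequence. For Myh3, Myh3-202 had 65.0% in replicate 1 and 48.4% in replicate 2 and Myh3-201 34.6% and 50.3%, so the libraries did not rank these alike. Their interval bounds overlapped in replicate 1 (5.54 to 10.8 and 0.038 to 7.78 TPM) and in replicate 2 (3.44 to 9.88 and 0.639 to 7.49 TPM). Of their 31-base words, 98.8% and 99.5% are in another Myh3 transcript. For Myh2-201 and Myh1-202 that share within the gene is 100%, so few words separate such transcripts and these splits are uncertain. In the second quantification Myh3-202 took 57.6% and 82.8% and Myh3-203 22.2% and 9.08%.

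Myh6 rested largely on short transcripts. In the first quantification the 542-base Myh6-207 took 82.6% and 82.3% of the TPM from 639 and 535 counts, while the full-length Myh6-205 had 1559 and 1513 counts but 15.1% and 17.4% of the TPM. In the second, Myh6-207 had 3.73 and 0 counts, and the 718-base Myh6-206 took 56.6% and 60.1%. Myh6-207 lies in exons 36 to 39 of Myh6-205, and 56.6% of its 31-base words are also in another member.

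Myh7 had a similar mix in the first quantification only. Myh7-201 took 66.4% and 67.4%, the 360-base Myh7-207 17.2% and 16.1%, and the 595-base Myh7-206 15.6% and 15.6%. In the second, both short ones had 0 counts, with Myh7-201 at 71.3% and 72.9% and the long Myh7-204 at 28.3% and 26.8%. Of the 31-base words of Myh7-206, 58.8% are in another member, against 6.06% for Myh7-207. Myh13-201 and Myh13-203 took 47.2% and 52.8% in replicate 1, and Myh13-201 100% in replicate 2, from few counts. Of the 31-base words of these transcripts, 100% and 98.7% are in another Myh13 transcript. Their interval bounds overlapped in both libraries, so this split is uncertain as well. In the second quantification Myh13-202 took 15.5% and 29.7%. Myh7b-201 took 62.9% and 58.5% of its gene, with Myh7b-203 at 37.1% in replicate 1 and Myh7b-202 at 31.7% in replicate 2. Each of the 2 short Myh7b transcripts was given fewer than 10 counts, so their shares carry little weight.

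**Figure D4:**
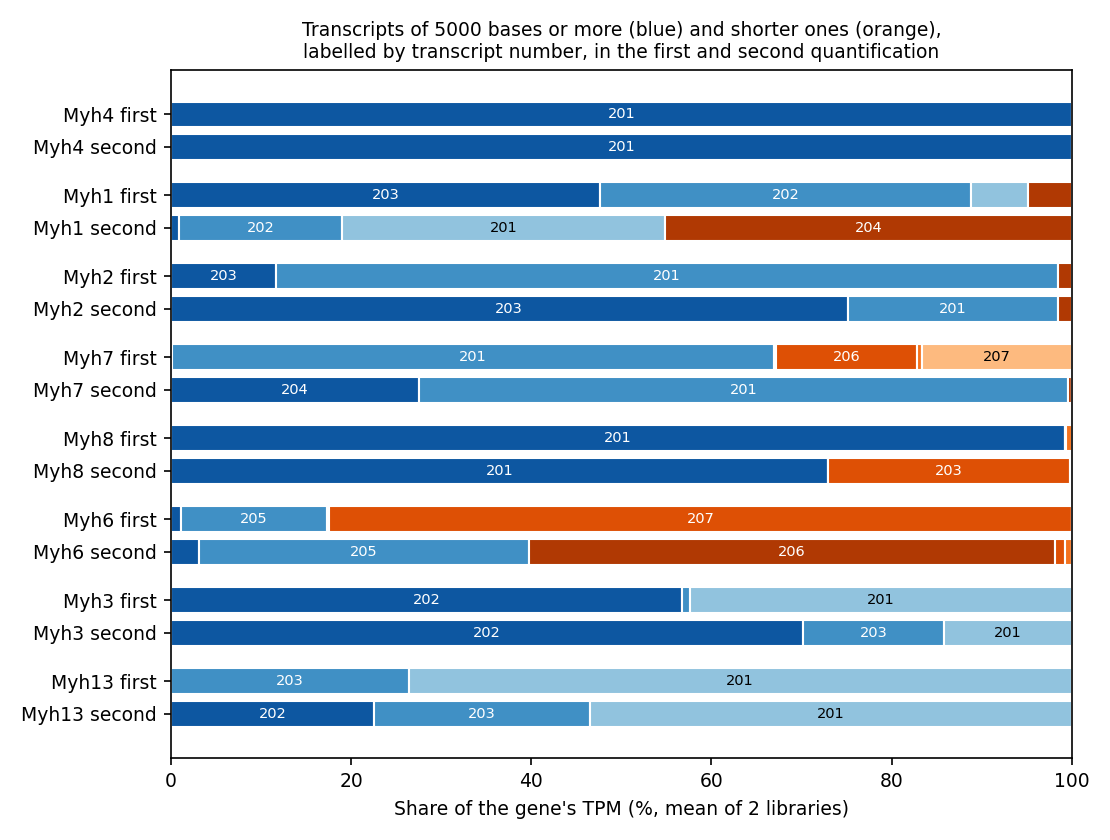
Share of each gene's TPM (%, mean of 2 libraries) by annotated transcript, in the first and second quantification, with transcripts of 5000 bases or more in blue and shorter ones in orange. Short transcripts take most of Myh6 in both quantifications, and take larger shares of Myh7 in the first and of Myh1 and Myh8 in the second, where Myh1-204 is the largest single transcript of Myh1.

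The 2 quantifications were then compared gene by gene within each library with limma on log2(TPM + 1). Across 13207 genes the second gave higher values by a median of 0.37 on the log2 scale, and 84.9% of genes passed an adjusted p of 0.05 (80.3% higher and 4.66% lower in the second). All 8 members in the fit passed, 6 higher and 2 lower, so that count by itself singles out nothing. Set against the median of all genes, where 22.4% of genes passed (14.4% higher and 7.94% lower), 3 members did. Myh1 was higher in the second quantification by 0.69 (SE 0.028, adjusted p = 0.018). Myh6 was lower (log2 difference -1.27, SE 0.028, adjusted p = 0.0089), and so was Myh7 (-0.61, SE 0.030, adjusted p = 0.020). Each difference had the same sign in both libraries. The other 5 did not pass: Myh4 (-0.10), Myh2 (-0.10), Myh13 (-0.094), Myh3 (-0.069) and Myh8 (0.12). With 2 libraries the smallest p of an exact sign-flip test is 0.5, so these p-values rest on the spread pooled over genes.

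Read as shares of the family, Myh1 took 11.9 ± 0.403% in the first and 19.1 ± 0.571% in the second quantification, and Myh4 79.6 ± 1.04% and 73.6 ± 1.02% (SD, n = 2 for each). Myh7 took 1.67 ± 0.166% and 1.08 ± 0.0950%, and Myh6 0.340 ± 0.0256% and 0.138 ± 0.0115%. Over transcripts of at least 5000 bases, a limit chosen after seeing the data, Myh1 took 11.5% in both, Myh4 80.8% and 80.9%, Myh7 1.13% and 1.19%, and Myh6 0.0599% and 0.0604%. Myh8 took 1.12% and 1.21% with all transcripts and 1.13% and 0.969% with long ones. The shares of expected counts were likewise 11.6% and 11.8% for Myh1 and 80.6% and 80.4% for Myh4. With long transcripts in the first quantification, Myh7 and Myh8 were at 180.8 and 181.1 TPM in replicate 1 and at 159.0 and 157.7 TPM in replicate 2, so their order differed between the libraries. In the second, Myh7 had a mean of 213 TPM and Myh8 of 174 TPM, the reverse of their order with all transcripts. Myh6 at 8.98 TPM was under Myh3 at 14.6 TPM with long transcripts of the first quantification. The places of Myh7 against Myh8 and of Myh6 against Myh3 therefore depend on which transcripts are counted, while Myh4, Myh1 and Myh2 kept their order in each of these versions.

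**Figure D5:**
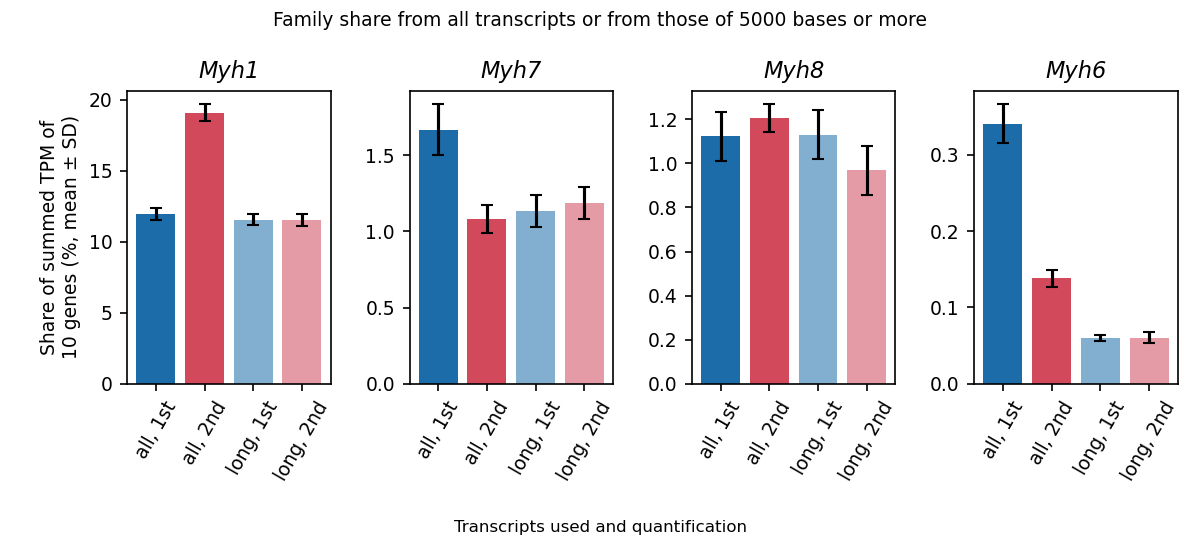
Share of the summed TPM of the 10 genes (%, bars are means, error bars the SD of 2 libraries, axes from 0) for Myh1, Myh7, Myh8 and Myh6, from all transcripts or from those of at least 5000 bases, in the first (blue) and second (red) quantification. The bars of Myh1, Myh7 and Myh6 differ between quantifications with all transcripts and are near equal with long ones.

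Between the libraries, 5 of the 9 members with at least 10 counts passed an exact binomial test on rounded counts with TMM-scaled library sizes, in which 21.7% of 17245 genes passed. Higher in replicate 1 were 4 members (10.2% of genes), namely Myh2 (log2 difference replicate 2 minus replicate 1 of -0.063, adjusted p = 1.7e-29), Myh7 (-0.12, adjusted p = 1.5e-26), Myh8 (-0.14, adjusted p = 9.8e-32) and Myh7b (-1.15, adjusted p = 2.3e-05). Myh4 alone was higher in replicate 2 (0.088; 11.4% of genes were higher there). The median of the 9 was -0.084, against -0.0032 over all genes tested. Myh1 (adjusted p = 0.30), Myh6 (0.17), Myh3 (0.15) and Myh13 (0.43) did not pass. In the second quantification 7 members passed by the same test, in which 21.9% of 18600 genes did. Of the 7, 5 were higher in replicate 1 and 2 in replicate 2, with Myh1 (0.016, adjusted p = 4.6e-05) and Myh6 (-0.13, adjusted p = 0.031) among them. This test covers counting error only, and at the counts of Myh4 a small difference passes it.

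On the TPM scale the 8 members that averaged 1 TPM or more had a median absolute log2 difference of 0.13, the same as the 0.13 of all 12156 such genes, and a range of 0.025 to 0.20. None of these 8 was over 2-fold apart, against 134 genes (1.1%) overall. Myh7b, below that level, was 2.17 times as high in replicate 1 in the first quantification and 1.17 times in the second, on few counts. In the second, the short Myh7b-202 was given 0.289 TPM in replicate 2 from 2.56 counts. By counts of the second quantification (155 and 81), Myh7b still passed as higher in replicate 1 (log2 difference -0.76, exact binomial test, adjusted p = 0.00079). Scaled to the added ERCC RNAs, which moved the median of all genes to -0.30, Myh4 was at -0.21, so its direction holds only relative to the other genes. Myh1, at -0.0056 in the first quantification, had the opposite sign in the second.

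Myh6, Myh7 and Myh7b each carry a miRNA in an intron, and these miRNAs are known to act on slow-fibre genes. They are shown to compare their seeds, bases 2 to 8 in capitals (RefSeq, GRCm38.p6).
miR-208a-3p, intron 29 of Myh6 (chr14:54949072-54949093, minus strand): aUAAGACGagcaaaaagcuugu
miR-208b-3p, intron 31 of Myh7 (chr14:54975710-54975731, minus strand): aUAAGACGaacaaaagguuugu
miR-499-5p, intron 19 of Myh7b (chr2:155622893-155622913, plus strand): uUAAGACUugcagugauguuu

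miR-208a-3p and miR-208b-3p share all 7 seed bases, and miR-499-5p shares 6 of them. The miRNA genes Mir208a, Mir208b and Mir499 were listed at 0 counts in both libraries. Their annotated hairpins, of 83, 77 and 79 bases, are shorter than the 99 bases that the first quantification takes off a transcript's length, so the level of these miRNAs cannot be read from these tables.

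Other genes of the myosin system were read from the same test, in which 10.2% of all genes were higher in replicate 1 and 11.4% in replicate 2, with a median log2 difference of -0.0032. Of 7 sarcomeric light chain genes, which brace the lever arm of the heavy chain, 6 had at least 1 TPM in both libraries, led by the fast regulatory chain Mylpf (26007 and 28391 TPM) and the fast essential chain Myl1 (14102 and 14880 TPM). Of the 6 tested, 4 were higher in replicate 2 and 0 in replicate 1 (median 0.11). Among 14 thick filament partners, Mybpc2, the fast myosin-binding protein C, had 2027 and 2131 TPM and the giant spring titin (Ttn) 1891 and 1752 TPM. Of 12 tested, 6 were higher in replicate 1 and 5 in replicate 2 (median 0.0055). Of 6 folding and turnover genes, led by the chaperones Hspa8 (428 and 582 TPM) and Hsp90ab1 (332 and 323 TPM), 3 were higher in replicate 2 and 0 in replicate 1 (median 0.11).

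All 23 listed regulators of myosin genes had at least 1 TPM in both libraries, led by the transcription factors Nfix (240 and 248 TPM) and Mef2c (116 and 141 TPM). Of these, 3 were higher in replicate 1 and 10 in replicate 2, against 10.2% and 11.4% of all genes (median 0.062). The 4 class II heavy chains of nonmuscle and smooth muscle cells were low beside Myh4. Myh9, the main nonmuscle chain, had 43.7 and 45.4 TPM and Myh14 9.705 ± 1.83 TPM (SD, n = 2), and the 4 genes together had 71.5 and 71.1 TPM. Of them, 2 were higher in replicate 1 and 2 in replicate 2, against the same 10.2% and 11.4% (median -0.044). The protein-coding genes nearest to Myh4 in level, by Euclidean distance of log2(TPM + 1) over 2 libraries, were Tpm1 (0.19), Tnnt3 (0.22) and Myl1 (0.37), which encode a tropomyosin, the fast troponin T and a light chain.

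The tissue label was checked against markers. All 10 skeletal muscle markers were high, from Acta1 (26590 and 28620 TPM) and Mylpf down to Mb, and all 10 were higher in replicate 2, where 11.4% of all genes were, with a median log2 difference of 0.18 against -0.0032 over all genes. Myh4 was also higher in replicate 2 and Myh2, Myh7, Myh8 and Myh7b in replicate 1, and the part of muscle content in these differences was not tested. Beside Myh6 and Myh7, the 11 heart muscle markers summed to 7.89 and 8.42 TPM, with only Myl4 (5.90 and 5.95 TPM), which embryonic skeletal muscle also makes, and Sln (1.20 and 1.15 TPM) at 1 TPM or more in both. Nppa, Nppb, Myl7 and Tbx20 were listed at 0 counts in both libraries in the first quantification, and 0 of the 5 markers tested passed between libraries. In the second quantification Nppa, Nppb and Myl7 were also at 0 TPM, and Tbx20 had 0.253 and 0.213 TPM. Muscle spindles, the stretch receptors whose fibres are known to hold unusual chains such as Myh6, were also looked for. Their 6 markers, led by Etv5 (8.22 and 7.05 TPM) and Etv1 (3.02 and 2.74 TPM), summed to 14.6 and 12.98 TPM. Of the 6, 4 had at least 1 TPM in both libraries, while Egr3 (0.27 and 0.39 TPM) and Gdnf (0.23 and 0.17 TPM) did not. Of 6 tested, 1 was higher in replicate 1 and 0 in replicate 2, against 10.2% and 11.4% of all genes. The part of spindle fibres in the Myh6 level was not tested. The 6 smooth muscle markers summed to 970 and 991 TPM, mostly Des (701 and 723 TPM), which skeletal fibres also make, and Acta2 (195 and 193 TPM).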

How the data were processed

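Total RNA-seq tables of 2 libraries of 1 group were used. The authors deposited expected counts (estimated reads, not normalised) and TPM per gene and transcript, with interval bounds of TPM, and a second transcript table of estimated counts and TPM, summed per gene here. The assembly was mm10 with annotation M21, per the submitters' processing notes. Names of the programs that aligned and quantified are not stated in the labels or file headers. Entries that name no gene, 26248 with numeric identifiers holding 3 and 1 counts, were left out, and the 97 added RNAs, 96 of them ERCC with 0.731% and 0.881% of counts, stayed out of the tests. At least 1 TPM was reached by 12246 and 12031 genes.

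Expected counts were rounded and compared between libraries by a two-sided exact binomial test (scipy 1.17.1) with TMM sizes from edgeR 4.0.16, at least 10 counts and Benjamini-Hochberg adjustment over all genes at 0.05. Quantifications were compared with limma 3.58.1 on log2(TPM + 1) for genes averaging 1 TPM or more in either. Both tests were checked on simulated data. The simulated counts held counting error only, and the simulated differences had no shift over all genes. Further spread between replicates and the shift seen here were thus not covered. Coding sequences were aligned with mafft 7.526. No protein sequence was used, so identity is of nucleotides. The reference does not carry CAST alleles. The binomial test and the floor cover only counting error.

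Named are all members, their transcripts averaging 10% or more of a gene in either quantification, the 2 highest genes of each list with any gene over 2-fold apart and called, genes at the loci averaging 1 TPM or more, and the 3 genes nearest to Myh4; the other markers, Mhrt and the miRNA genes were chosen after their values were seen. The members and lists were chosen with earlier results of these data known.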

Additional observations from a re-analysis of the deposited data

How the results depend on the processing

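No paired analysis was possible because the series has 1 group. Members at 1 TPM or more stayed at 8 to 8 and those led by a transcript of at least 5000 bases at 9 to 9 without either replicate. The share of Myh4 ranged from 78.9% to 80.4% without either replicate, and was 73.6% in the second quantification and, with transcripts of at least 5000 bases only (chosen after seeing the data), 80.8% and 80.9% in the first and second. Between libraries, 5 members passed, beside 21.7% of all genes tested. With total counts as library sizes 8 did (20.9% of genes), and in the second quantification 7 (21.9%). Scaled to the added ERCC RNAs, 9 members and 9052 of 17245 genes (52.5%) passed. All 9 members and 8756 of these genes were higher in replicate 1 there, with Myh4 turned to -0.21 beside a median of -0.30. A 2-fold limit on TPM in place of the test passed 0 members and 134 genes (1.1%). It was set over genes averaging 1 TPM or more, which leaves out Myh7b. Myh1 was at 0.016 in the second quantification. Between quantifications, 8 members and 11218 genes passed; with no minimum TPM it was 0 members and 290 genes by limma (7 and 11143 at an unadjusted p under 0.05), and centred on the median 3 members and 2956 genes. Centring moved the share of called genes that were higher from 94.5% to 64.5%, and turned Myh4 and Myh2 to -0.10 each, Myh3 to -0.069 and Myh13 to -0.094. Uncentred, Myh7 was at -0.25 and Myh6 at -0.90. With long transcripts Myh7 was at 0.32 (SE 0.028) and Myh6 at 0.25 (SE 0.036), beside a median of 0.36 over all genes. Myh8 went from 0.48 to 0.036 (SE 0.028) in that version and did not pass, so 7 members passed, as did 84.9% of genes. On CPM, also chosen after seeing the data, Myh7 was at 0.091 (SE 0.012) and Myh6 at -0.23 (SE 0.022), beside a median of 0.10. Myh7 was thus near the median in both of these versions, and the gaps to the median were not tested there. The construction of the long-transcript version removes the short transcripts named above; for the other changes the cause was not tested. Depth limits Myh15, under the floor, and Myh7b and Myh13, on few counts.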
